A study of Mus musculus with 12 samples.

Results

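The 9 genes described here encode the proteins by which a cell detects foreign or misplaced nucleic acid in its cytosol and starts the type I interferon response. They were chosen by name as rows of the count table, and all 9 were found among its 55401 genes and passed the expression filter that left 14079 genes to be tested. They comprise the RNA receptors Ddx58, Ifih1 and Dhx58 with their adaptor Mavs, the DNA sensor Cgas with its adaptor Tmem173, the Z nucleic acid sensor Zbp1, and the kinases Tbk1 and Ikbke.

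Their mRNA was measured by bulk RNA sequencing of Sp37A3, a dendritic cell line from the spleen of C57BL/6 mice that was grown with GM-CSF and M-CSF. CtrV cells had received an empty lentiviral CRISPR vector, and EKO cells the same vector with a guide against Siglece, which encodes the inhibitory receptor Siglec-E. The EKO line was a pool of several single-cell clones selected for low Siglec-E protein, so differences between the lines hold the clones' own differences as well as the targeting. Cells of both lines were either pulsed with ovalbumin (OVA) or left unpulsed, and all 12 libraries came from cells that were also given LPS, with 24 hours between stimulation and collection. There were thus 4 groups of 3 libraries and no group without LPS. The libraries of a group are numbered 1 to 3 in the labels, which do not say whether they were separate cultures, so that p-values may measure technical spread.

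Library totals lay between 27116201 and 39698572 counts, and 3 counts corresponded to at most 0.110 CPM, the unit of counts scaled to 1000000 per library. The targeted gene, Siglece, lay between 150.2 and 163 CPM in the 6 CtrV libraries and between 166 and 235 CPM in the 6 EKO-labelled ones, which is no reduction, with log2 fold changes of 0.31 ± 0.08 (SE, edgeR adjusted p = 0.011) in OVA-pulsed and 0.41 ± 0.08 (adjusted p = 0.0026) in unpulsed cells. The former call was lost without replicate 2 of the OVA-pulsed CtrV cells (0.26, adjusted p = 0.073) or of the OVA-pulsed EKO-labelled cells (0.26, adjusted p = 0.062). A frameshifted transcript can still be counted, so this level does not check the protein, and the directions below are those of the library labels. All 10 dendritic cell markers passed the filter, with Flt3 low at group means of 1.36 to 4.67 CPM, whereas 0 of 6 T cell, 0 of 5 B cell and 0 of 5 fibroblast markers did. Of 7 macrophage or monocyte markers, 6 passed, and their summed level was 1361 to 1552 CPM in the CtrV and 1829 to 2066 CPM in the EKO-labelled libraries. Its part in the differences between the lines was not tested.

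RIG-I (encoded by Ddx58) and MDA5 (Ifih1) are helicases that bind double-stranded RNA and signal through MAVS on mitochondria, while LGP2 (Dhx58) lacks the signalling domain and modulates both. cGAS makes a cyclic dinucleotide on double-stranded DNA that activates STING (Tmem173), and ZBP1 binds Z-form nucleic acid and can start necroptosis. TBK1 and IKKε (Ikbke) phosphorylate interferon regulatory factors downstream of both adaptors, and in dendritic cells these routes act beside the Toll-like receptor that recognizes LPS.

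The first question was whether these genes differed between the EKO-labelled and the CtrV cells. In OVA-pulsed cells, Ddx58, Ifih1, Dhx58, Zbp1, Tbk1 and Ikbke were higher in the EKO-labelled cells, Mavs and Tmem173 were lower, and Cgas did not pass the test. Thus 8 of 9 members were called at an adjusted p under 0.05 (edgeR quasi-likelihood test), 6 higher and 2 lower, and over all genes tested 47.0% were called, 25.1% higher and 21.9% lower. In unpulsed cells 8 of 9 members were again called in the same directions, against 46.4% of all genes, 24.5% higher and 21.9% lower. The median log2 fold change of the 9 members was 1.31 in OVA-pulsed and 1.59 in unpulsed cells, and the median over all genes tested was 0.0 in both. The range reached from -0.63 (Tmem173) to 3.51 (Ikbke) in OVA-pulsed cells. For these 8 members the 3 libraries of one line did not overlap with those of the other in either condition, while 52.9% of all genes did not overlap with OVA and 47.1% without. In bulk samples, a smaller share of cells that express a gene and less mRNA per cell cannot be told apart. The plot of fold changes shows that the 95% intervals of both line comparisons overlapped for each member. The values themselves were 2.89 with OVA and 3.42 without for Zbp1, and 0.04 and 0.31 for Cgas.

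**Figure D1:**
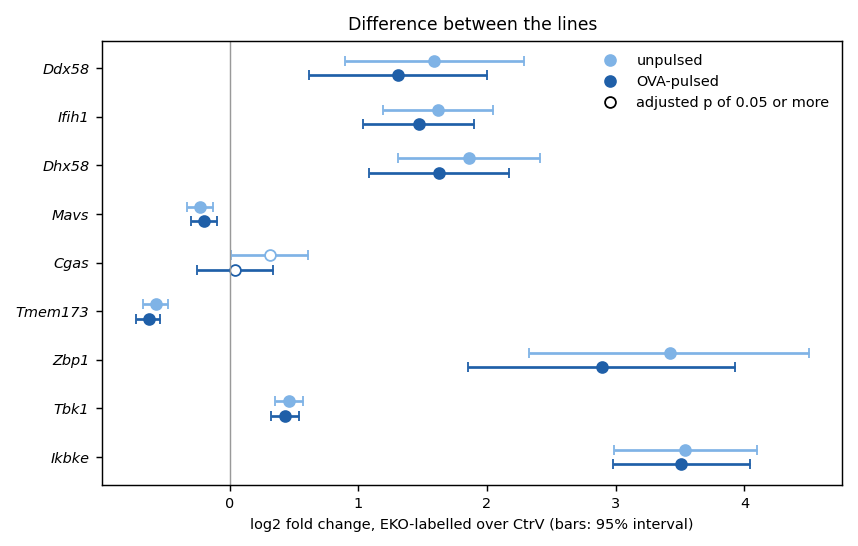
Log2 fold change of each member, EKO-labelled over CtrV cells (x axis), from edgeR with 95% intervals, for unpulsed (light) and OVA-pulsed (dark) cells with 3 libraries per group; open circles did not reach an adjusted p under 0.05. Ikbke and Zbp1 lay farthest to the right, at 3.51 and 2.89 in OVA-pulsed cells, and Tmem173 farthest to the left, at -0.63.

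To see whether the starts of these genes share sequence, the 250 bases before the transcription start were taken from RefSeq (GRCm38.p6), which gave promoters for Ddx58, Ifih1, Mavs, Cgas, Tbk1 and Ikbke. The 4 shown here belong to 3 genes that rose and 1 that fell, each 5′ to 3′ in the direction of the gene, with the match to AANNGAAA, a short motif of interferon regulatory factors, in capitals. Those of Ddx58 (chr4:40239826-40240075), Ifih1 (chr2:62646256-62646505) and Ikbke (chr1:131279564-131279813) are on the minus strand and that of Mavs (chr2:131233813-131234062) on the plus strand. The RefSeq starts can differ from the GENCODE gene positions given below. The windows of Ikbke and Ddx58 thus overlap these gene positions, which end at 131279606 and 40239828.
Ddx58: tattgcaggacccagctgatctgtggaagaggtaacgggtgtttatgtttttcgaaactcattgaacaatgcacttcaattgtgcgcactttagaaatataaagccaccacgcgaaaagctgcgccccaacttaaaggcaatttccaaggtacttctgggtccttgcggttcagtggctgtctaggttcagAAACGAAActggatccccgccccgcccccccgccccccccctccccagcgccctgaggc
Ifih1: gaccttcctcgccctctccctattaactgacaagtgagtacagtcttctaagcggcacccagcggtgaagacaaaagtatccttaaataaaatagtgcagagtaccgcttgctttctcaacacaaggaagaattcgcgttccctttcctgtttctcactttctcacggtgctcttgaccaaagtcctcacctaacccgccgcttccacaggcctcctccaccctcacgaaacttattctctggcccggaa
Ikbke: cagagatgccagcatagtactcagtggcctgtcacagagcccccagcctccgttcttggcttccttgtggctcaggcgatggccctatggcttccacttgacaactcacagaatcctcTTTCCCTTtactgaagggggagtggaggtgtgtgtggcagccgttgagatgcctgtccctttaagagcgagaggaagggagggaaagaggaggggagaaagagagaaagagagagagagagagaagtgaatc
Mavs: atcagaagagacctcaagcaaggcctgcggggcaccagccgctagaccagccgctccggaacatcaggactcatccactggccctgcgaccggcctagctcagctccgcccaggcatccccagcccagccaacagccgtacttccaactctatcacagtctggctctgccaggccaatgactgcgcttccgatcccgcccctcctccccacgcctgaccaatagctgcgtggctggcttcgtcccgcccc

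The longer core of the interferon-stimulated response element, a pair of GAAA separated by any 2 bases, had a match on either strand in 0 of the 6 promoters and in 2.98% of all 32851 RefSeq promoters of this length. The STAT motif TTCNNNGAA (7.02% of all promoters) and the NF-kB palindrome (GGGAA, any base, TTCC; 0.283%) had no match in the 6 either. The motif AANNGAAA is contained in the longer core and was added after that had no match. Its match in Ddx58 was AAACGAAA from -59 to -52, counted back from the RefSeq start. In Ikbke it was AAGGGAAA on the opposite strand from -132 to -125. The motif occurs in 21.3% of all promoters and in 16.7% of the 11271 promoters of tested genes. These letters were not in the windows of Ifih1, Mavs, Cgas and Tbk1.

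Among the RNA receptors, Ddx58 lies on chromosome 4 from 40203773 to 40239828 (GRCm38, minus strand). Its level in replicates 1, 2 and 3 was 55.1, 65.8 and 60.3 CPM in unpulsed and 90.3, 54.6 and 53.5 CPM in OVA-pulsed CtrV cells. In EKO-labelled cells it was 95.6, 236 and 229 CPM when unpulsed and 128, 192 and 191 CPM when pulsed. Every EKO-labelled library was above every CtrV library, but replicate 1 was the lowest of both EKO-labelled groups and the highest of the OVA-pulsed CtrV group, so the lines came closest there. The log2 fold change was 1.31 ± 0.31 (SE, adjusted p = 0.0055) in OVA-pulsed and 1.59 ± 0.31 (adjusted p = 0.0019) in unpulsed cells. By replicate number the OVA-pulsed pairs differed by 0.50, 1.82 and 1.84 on the log2 scale.

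Ifih1, on chromosome 2 from 62595798 to 62646255 (minus strand), had 67.1, 72.1 and 73.3 CPM in unpulsed and 95.7, 65.0 and 63.5 CPM in OVA-pulsed CtrV cells. The EKO-labelled libraries held 156, 256 and 244 CPM without and 186, 220.1 and 220.4 CPM with OVA. As for Ddx58, the lines did not overlap and replicate 1 was the lowest in both EKO-labelled groups. The log2 fold change was 1.47 ± 0.20 (SE, adjusted p = 0.00013) with OVA and 1.62 ± 0.20 (adjusted p = 7.4e-05) without.

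Dhx58, on chromosome 11 from 100694884 to 100704271 (minus strand), was at 40.0, 48.4 and 54.4 CPM in unpulsed and 74.0, 42.0 and 42.0 CPM in OVA-pulsed CtrV cells. In EKO-labelled cells its levels were 122, 205 and 193 CPM without and 151, 167 and 175 CPM with OVA. It rose by the largest factor of the 3 receptors, with log2 fold changes of 1.63 ± 0.25 (SE, adjusted p = 0.00034) in OVA-pulsed and 1.86 ± 0.25 (adjusted p = 0.00015) in unpulsed cells, although its intervals overlapped those of Ddx58 and Ifih1. On its opposite strand 141 exon bases are shared with Dhx58os, whose own level was at most 0.0306 CPM.

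The 3 receptors also followed each other across the libraries. The root mean square difference between their log2 CPM, each centred on its mean over the 12 libraries, was 0.141 for Ifih1 and Dhx58, 0.179 for Ddx58 and Ifih1, and 0.240 for Ddx58 and Dhx58. Counting Ddx58 itself, 37 tested genes were closer to Ddx58 than Dhx58 was. The measure is not scaled, so genes that change little over the libraries have small differences from each other. Of the 14079 tested genes, those with the most similar pattern by this measure were Gm12250, Slfn8 and Phf11d for Ddx58 (0.111 to 0.119) and Xaf1, Gm12250 and Tlr4 for Ifih1 (0.0947 to 0.107). For Dhx58 they were ENSMUSG00000118632, Trex1 and Gm45193 (0.0722 to 0.0908). Tlr4 encodes the receptor for LPS, and Trex1 an exonuclease that degrades cytosolic DNA.

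Mavs, the adaptor through which RIG-I and MDA5 signal, moved the other way. The gene lies on chromosome 2 from 131234063 to 131248025 (plus strand) and was at 69.1, 66.5 and 66.0 CPM in unpulsed and 72.1, 67.0 and 64.7 CPM in OVA-pulsed CtrV cells. The EKO-labelled libraries held 58.4, 58.8 and 54.9 CPM without and 60.3, 61.5 and 55.7 CPM with OVA. The fall was small and present in all 6 pairs, with log2 fold changes of -0.20 ± 0.05 (SE, adjusted p = 0.0044) in OVA-pulsed and -0.23 ± 0.05 (adjusted p = 0.0022) in unpulsed cells. Ipmk, Nol9 and Bola3 had the most similar pattern (0.0496 to 0.0512). The level of Ddx58 relative to Mavs in CPM was 0.798 to 1.25 in the CtrV libraries and 1.64 to 4.17 in the EKO-labelled ones. Their exons hold 7050 and 3345 bases, so only the change of this ratio between the lines can be read. Per kb of exon, mean Ddx58 and Mavs were 9.38 and 20.3 CPM in OVA-pulsed CtrV cells. In OVA-pulsed EKO-labelled cells they were 24.2 and 17.7 CPM per kb. In the unpulsed EKO-labelled replicate 1, Ddx58 was below Mavs (13.6 against 17.5 CPM per kb). With OVA, Ddx58 rose 2.48-fold and Mavs fell 1.15-fold.

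**Figure D2:**
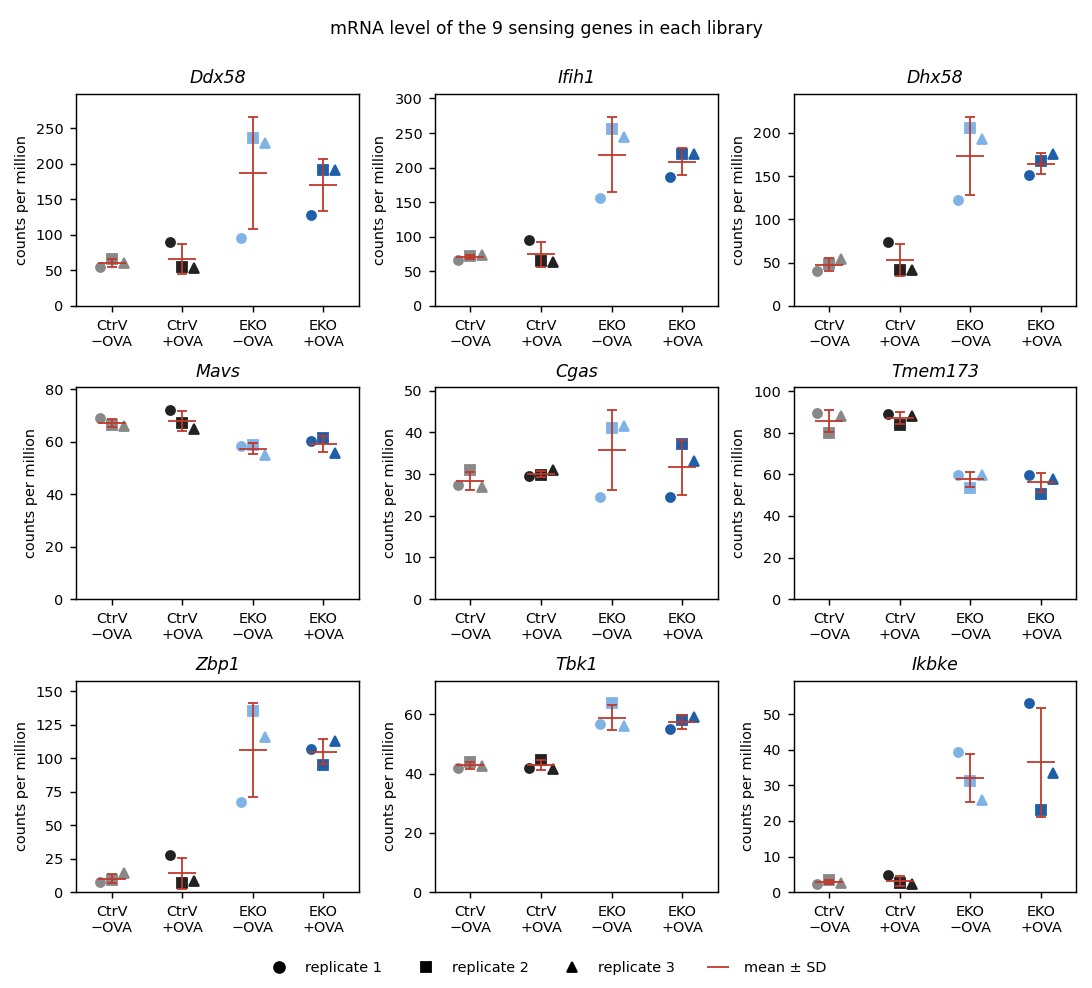
CPM of each member (y axis, from 0) in the 12 libraries, by group (x axis; −OVA unpulsed, +OVA pulsed); points are single libraries with a marker for each replicate number, and red lines show the mean ± SD of 3 libraries. Zbp1 and Ikbke were low in CtrV cells, with at most 27.6 and 4.76 CPM, and Mavs and Tmem173 were the members that lay lower in EKO-labelled cells.

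On the DNA side, Cgas lies on chromosome 9 from 78430526 to 78443237 (minus strand). It was at 27.3, 30.9 and 26.9 CPM in unpulsed and 29.5, 29.9 and 30.9 CPM in OVA-pulsed CtrV cells. In EKO-labelled cells it was at 24.6, 41.1 and 41.5 CPM without and 24.4, 37.2 and 33.2 CPM with OVA, so that replicates 2 and 3 lay above all CtrV libraries of the same condition and replicate 1 below them. The log2 fold change was 0.04 (95% interval -0.25 to 0.34, adjusted p = 0.81) in OVA-pulsed and 0.31 (0.01 to 0.61, adjusted p = 0.082) in unpulsed cells, and neither passed the test. This result depended on libraries numbered 1, in OVA-pulsed cells only when both EKO-labelled ones were left out. Without both EKO-labelled libraries of that number the log2 fold change was 0.20 (adjusted p = 0.043) with OVA and 0.53 (adjusted p = 0.00023) without. In unpulsed cells it also passed without EKO-labelled replicate 1 alone (0.48, adjusted p = 0.007) and without CtrV replicate 1 (0.43, adjusted p = 0.037). In OVA-pulsed cells Cgas did not pass without EKO-labelled replicate 1 alone (0.13, adjusted p = 0.55) or without CtrV replicate 1 (0.18, adjusted p = 0.31). Its most similar genes were Masp1, Cd180 and Nmral1 (0.0690 to 0.0982). On the opposite strand Cgas shares 201 exon bases with Gm8093, whose level was at most 0.0733 CPM.

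Tmem173, which encodes STING, lies on chromosome 18 from 35733679 to 35740554 (minus strand) and fell in the EKO-labelled cells. Its levels were 89.5, 79.7 and 87.9 CPM in unpulsed and 88.9, 83.6 and 88.3 CPM in OVA-pulsed CtrV cells. In EKO-labelled cells they were 59.6, 53.6 and 59.6 CPM without and 59.9, 50.8 and 57.6 CPM with OVA. The groups were well apart and the pairs alike, with log2 fold changes of -0.63 ± 0.04 (SE, adjusted p = 1.2e-06) in OVA-pulsed and -0.57 ± 0.04 (adjusted p = 2.8e-06) in unpulsed cells. The genes with the most similar pattern over the 12 libraries were Ctdsp2, Lasp1 and Sept9 (0.0388 to 0.0569). Mavs differed from Tmem173 by 0.221, and 1723 tested genes, Tmem173 itself included, were closer than that.

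Zbp1, the sensor of Z-form nucleic acid, is located on chromosome 2 from 173206612 to 173218923 (minus strand). In CtrV cells it was at 7.30, 8.81 and 14.2 CPM unpulsed and 27.6, 6.86 and 8.29 CPM with OVA. In EKO-labelled cells it reached 67.2, 135 and 116 CPM without and 107, 94.8 and 113 CPM with OVA. The lines were far apart in every pair, but the OVA-pulsed CtrV replicate 1 held 3.65 times the mean of the other two. The log2 fold change was 2.89 ± 0.47 (SE, adjusted p = 0.00054) in OVA-pulsed cells and 3.42 ± 0.49 (adjusted p = 0.00024) in unpulsed cells, which is 7.40-fold and 10.7-fold. Without the OVA-pulsed CtrV replicate 1 the former became 3.97 (adjusted p = 2.3e-06). The value was 2.48 (adjusted p = 0.0039) without replicate 2 of that group and 2.51 (adjusted p = 0.004) without replicate 3. Its most similar genes, Hsh2d, Gm21188 and Rasa4, were less close than those of the RNA receptors, with differences of 0.288 to 0.333.

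Tbk1, on chromosome 10 from 121546455 to 121586787 (minus strand), is the kinase that most cell types express. It was at 41.8, 43.9 and 42.7 CPM in unpulsed and 42.0, 44.7 and 41.7 CPM in OVA-pulsed CtrV cells. The EKO-labelled libraries held 56.9, 63.8 and 56.0 CPM without and 55.0, 58.1 and 59.3 CPM with OVA. This was a rise of moderate size with little spread, with log2 fold changes of 0.43 ± 0.05 (SE, adjusted p = 5.5e-05) in OVA-pulsed and 0.46 ± 0.05 (adjusted p = 3.6e-05) in unpulsed cells. Armc8, Ngly1 and Fxr1 were the genes most similar to it (0.0469 to 0.0499).

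Ikbke, its inducible relative, lies on chromosome 1 from 131254343 to 131279606 (minus strand). It was low in CtrV cells, at 2.36, 3.37 and 2.47 CPM without and 4.76, 2.51 and 2.22 CPM with OVA. In EKO-labelled cells it was at 39.3, 31.2 and 26.0 CPM without and 53.1, 23.0 and 33.5 CPM with OVA. With all 12 libraries this was the largest difference of the 9 members in both conditions, with log2 fold changes of 3.51 ± 0.24 (SE, adjusted p = 9.7e-07) in OVA-pulsed and 3.54 ± 0.25 (adjusted p = 1.5e-06) in unpulsed cells, or 11.4-fold and 11.7-fold. Zbp1 came above it in OVA-pulsed cells without the CtrV replicate 1 (3.97 against 3.71). It also did so in unpulsed cells without the CtrV replicate 3 (3.78 against 3.58), without the EKO-labelled replicate 1 (3.79 against 3.64), or without both EKO-labelled libraries numbered 1 (3.89 against 3.55). Per kb of exon, the level of Ikbke relative to Tbk1 was 0.0231 to 0.0491 in the CtrV and 0.172 to 0.419 in the EKO-labelled libraries. The most similar genes were Pla2g4f, Tnfsf15 and Rab30 (0.256 to 0.283), and the overlapping genes Gm28914 and Gm28913 on the opposite strand had at most 0.0270 CPM.

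**Figure D3:**
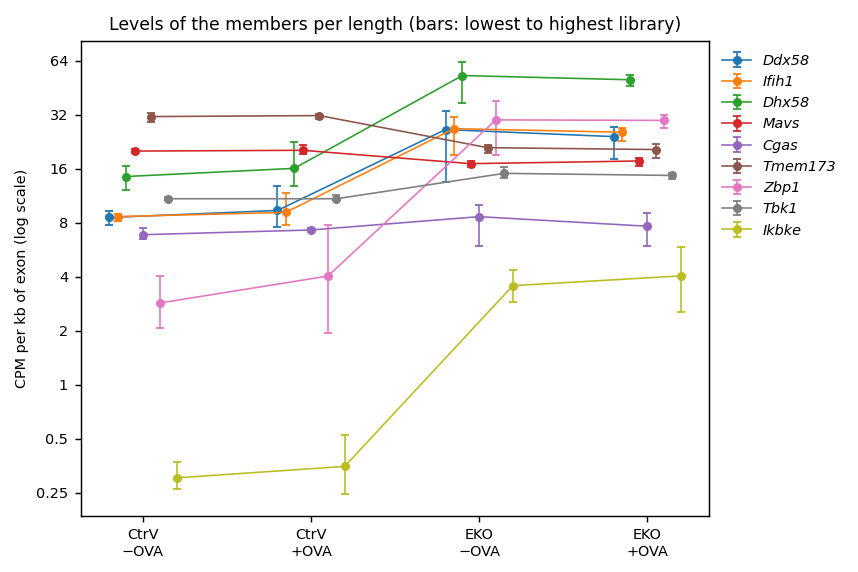
Mean CPM per kb of exon (y axis, log scale) of the 9 members in the 4 groups (x axis), with bars from the lowest to the highest of 3 libraries. Tmem173 was highest in both CtrV groups at 31.3 and 31.7 CPM per kb, and Dhx58 in both EKO-labelled groups at 53.0 and 50.2.

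Levels can be compared between genes only per length, so CPM was divided by the length of all exons of a gene. In unpulsed CtrV cells the order of these levels was Tmem173 (31.3 ± 1.91 CPM per kb, SD, n = 3), Mavs (20.1 ± 0.498), Dhx58 (14.5 ± 2.21), Tbk1 (10.9 ± 0.263), Ifih1 (8.67 ± 0.403), Ddx58 (8.57 ± 0.760), Cgas (6.87 ± 0.535), Zbp1 (2.86 ± 1.03) and Ikbke (0.303 ± 0.0610). Ifih1 and Ddx58 were the only neighbours in this order whose libraries overlapped. In OVA-pulsed CtrV cells the same genes led, and Mavs and Dhx58, Tbk1 and Ddx58, Ddx58 and Ifih1, and Cgas and Zbp1 overlapped.

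In EKO-labelled cells the group means of Dhx58, Zbp1, Ifih1 and Ddx58 lay above those of both adaptors, although not in every library. In the unpulsed replicate 1, Ddx58 (13.6 CPM per kb), Zbp1 (19.0) and Ifih1 (19.1) were below Tmem173 (21.8). In the OVA-pulsed replicate 1, Ddx58 (18.2) was below Tmem173 (21.9). Without OVA, the order was Dhx58 (53.0 ± 13.8 CPM per kb, SD, n = 3), Zbp1 (30.0 ± 9.87), Ifih1 (26.8 ± 6.68), Ddx58 (26.5 ± 11.2), Tmem173 (21.0 ± 1.28), Mavs (17.1 ± 0.640), Tbk1 (15.1 ± 1.09), Cgas (8.66 ± 2.34) and Ikbke (3.57 ± 0.744). Each of the first 5 overlapped with the gene next to it in this order, and from Tmem173 on no gene overlapped with the next one. Ddx58, with libraries from 13.6 to 33.5, also overlapped with Mavs and Tbk1. With OVA the order was the same, and Dhx58 no longer overlapped with Zbp1. Despite its rise Ikbke remained the lowest member in all 4 groups. With the coding length in place of the exon length, Zbp1 and not Dhx58 led in both EKO-labelled groups, but closely. The means were 85.9 against 85.3 CPM per kb without OVA and 85.2 against 80.8 with OVA. With the longest transcript as length, Dhx58 led in both, Ddx58 had rank 2 and Zbp1 rank 4.

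The second question was whether OVA pulsing changed these genes, or their difference between the lines. With OVA against without, 0 of 9 members were called in CtrV cells and 0 of 9 in EKO-labelled cells by edgeR, and the share over all genes tested was 0% in both. At an unadjusted p under 0.05, 0 members and 231 genes passed in CtrV cells, and 0 members and 394 genes in EKO-labelled cells. DESeq2 and limma voom likewise called 0 genes. The log2 fold changes of the members lay between 0.00 and 0.49 in CtrV and between -0.17 and 0.14 in EKO-labelled cells. The largest, that of Zbp1 in CtrV cells, was 0.49 with an interval from -0.64 to 1.62, so a change of considerable size in either direction could not be seen with 3 libraries. For Mavs, Tmem173 and Tbk1 the intervals stayed between -0.14 and 0.15 in both lines.

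In CtrV cells the OVA-pulsed replicate 1 stood apart. It held 1.49 to 3.65 times the mean of the other libraries of its group for Ddx58, Ifih1, Dhx58, Zbp1 and Ikbke. For Mavs, Cgas, Tmem173 and Tbk1 it was at 0.970 to 1.09 times that mean. Replicate 1 rose with OVA in CtrV cells by 1.92 on the log2 scale for Zbp1 and 0.71 for Ddx58, while replicates 2 and 3 were lower with OVA by -0.36 and -0.78 for Zbp1 and by -0.27 and -0.17 for Ddx58. Without that library the sign of the difference turned, to -0.54 for Zbp1, -0.39 for Ddx58, -0.31 for Dhx58 and -0.26 for Ifih1.

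**Figure D4:**
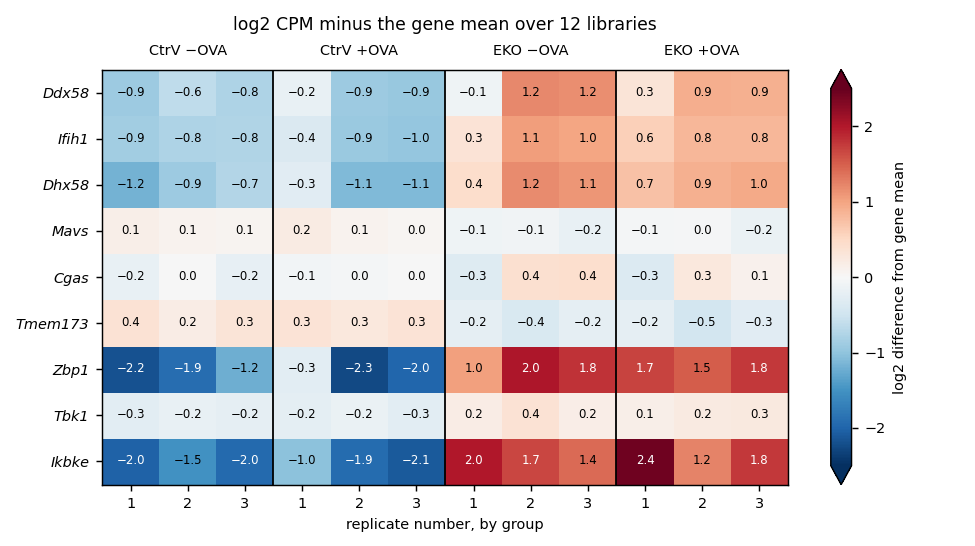
Log2 CPM of each member (rows) minus its mean over the 12 libraries, in colour and as numbers, for the 12 libraries (columns, by group and replicate number). The EKO-labelled replicate 1 columns are paler than their neighbours for Ddx58, Ifih1 and Dhx58 and darker for Ikbke.

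In both EKO-labelled groups replicate 1 was below replicates 2 and 3 for Ddx58, Ifih1, Dhx58 and Cgas, at 0.411, 0.624, 0.612 and 0.596 times their mean without OVA and 0.668, 0.846, 0.883 and 0.694 times with OVA. Ikbke was the reverse, at 1.37 and 1.88 times their mean. Mavs stayed within 1.03 times and Tbk1 at 0.936 to 0.950 times in both groups. The map of centred levels shows this pattern beside the larger one between the lines. What set these libraries apart was not tested.

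The dependence of the line difference on pulsing was tested as an interaction, which called 0 of 9 members and 0% of all genes with edgeR. At an unadjusted p under 0.05 it held 0 members and 269 genes, and DESeq2 called 0 genes. Values lay between -0.53 for Zbp1 (interval -1.98 to 0.92) and 0.03 for Mavs (-0.12 to 0.17). Each line comparison shares a group of libraries with each OVA comparison, and all come from 1 fit, so their values are given side by side.

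The other genes of these pathways were taken from 6 lists with 77 genes, of which 73 passed the filter. In OVA-pulsed cells 24 were higher and 15 lower in the EKO-labelled cells and 34 did not pass the test, with a median log2 fold change of 0.04. Those called were 53.4% of the lists, near the 47.0% of all genes tested, of which 25.1% were higher and 21.9% lower. In unpulsed cells 25 were higher and 16 lower, or 56.2% against 46.4% of all genes. The median over the lists was thus near that over all genes, 0.0, and below the 1.31 of the 9 members.

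**Figure D5:**
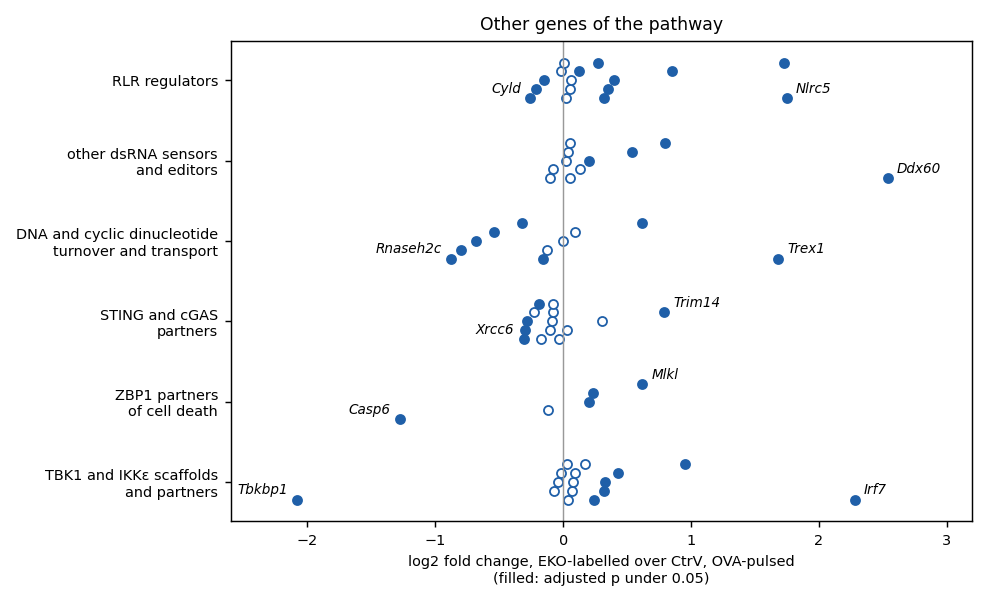
Log2 fold change of EKO-labelled over CtrV cells with OVA (x axis) for the 73 tested genes of the 6 lists (rows; height within a row only separates points); filled points had an adjusted p under 0.05, and the gene with the largest called rise and fall of each list is named. Ddx60 and Irf7 lay farthest to the right, at 2.54 and 2.28, and Tbkbp1 farthest to the left, at -2.08.

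Of the 16 tested regulators of RIG-I-like receptors, 8 were higher and 3 lower with OVA, or 68.8% called against 47.0% of all genes tested. The largest rise was that of Nlrc5, a transactivator of MHC class I genes that also binds RIG-I and MDA5, with 21.3 to 41.6 CPM in CtrV and 89.5 to 113 CPM in EKO-labelled OVA-pulsed libraries and a log2 fold change of 1.75 ± 0.25 (SE, adjusted p = 0.00019). The largest fall was that of the deubiquitinase Cyld, at -0.26 ± 0.06 (adjusted p = 0.0046). Trim25, whose product ubiquitinates RIG-I, is given after its value was seen and had a log2 fold change of 0.32 ± 0.07 (adjusted p = 0.0048).

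Among 11 other sensors and editors of double-stranded RNA, 4 were higher and 0 lower by edgeR at an adjusted p under 0.05 with OVA, or 36.4% called against 47.0% of all genes. Ddx60, a helicase reported to aid RIG-I, rose most, from 4.47 to 8.43 CPM in CtrV to 28.0 to 40.8 CPM in EKO-labelled libraries with OVA. Its log2 fold change was 2.54 ± 0.33 (SE, adjusted p = 0.00012). With single libraries left out it ran from 2.21 to 3.23, the highest without the OVA-pulsed CtrV replicate 1.

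Of 11 tested genes for the turnover and transport of DNA and cyclic dinucleotides, 2 were higher and 6 lower with OVA, and 2 higher and 5 lower without. This was 72.7% called with OVA, against 47.0% of all genes. Trex1 rose by 1.68 ± 0.28 (SE, adjusted p = 0.00069). Rnaseh2c, a subunit of the nuclease that removes ribonucleotides from DNA, fell by -0.88 ± 0.09 (adjusted p = 2.8e-05). The genes Enpp1 and Lrrc8e did not pass the filter, with at most 0.0358 CPM.

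Of 14 partners of STING and cGAS, 1 was higher and 4 were lower with OVA, or 35.7% called against 47.0% of all genes, and 2 were higher and 5 lower without. The former was Trim14, which binds cGAS, at 0.79 ± 0.13 (SE, adjusted p = 0.00057) on the log2 scale, and the largest fall with OVA was that of Xrcc6, a subunit of the Ku complex at DNA ends, at -0.31 ± 0.08 (adjusted p = 0.0098). Trim32, named after its value was seen, was close to it at -0.30 with OVA and fell more without (-0.39 against -0.26). The Xrcc6 call with OVA was lost without the EKO-labelled replicate 3 with OVA (-0.25, adjusted p = 0.059). In unpulsed cells its edgeR call was lost without the unpulsed CtrV replicate 3 (-0.23, adjusted p = 0.083). It was also lost there without the unpulsed EKO-labelled replicate 2 (-0.18, adjusted p = 0.11) or replicate 3 (-0.25, adjusted p = 0.077).

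Among the 5 tested partners of ZBP1 in cell death, 3 were higher and 1 lower with OVA, where 47.0% of all genes were called. Mlkl, the executor of necroptosis, had 8.37 to 10.8 CPM in CtrV and 12.4 to 16.8 CPM in EKO-labelled OVA-pulsed libraries, a log2 fold change of 0.62 ± 0.16 (SE, adjusted p = 0.0078). This call was lost without the CtrV replicate 2 with OVA (0.46, adjusted p = 0.055). Casp6 was at 83.0 to 89.3 and 34.2 to 36.9 CPM and fell by -1.28 ± 0.10 (adjusted p = 3.7e-06). The kinase gene Ripk3, which links ZBP1 to MLKL, did not pass the filter and was at most at 0.265 CPM in any library.

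Of 16 scaffolds and partners of TBK1 and IKKε, 6 were higher and 1 lower with OVA, or 43.8% called against 47.0% of all genes. The latter was Tbkbp1, the scaffold also called SINTBAD, with 149 to 159 CPM in CtrV and 33.6 to 38.9 CPM in EKO-labelled OVA-pulsed libraries and a log2 fold change of -2.08 ± 0.07 (SE, adjusted p = 1.2e-08). The other scaffolds of the same family are named after their values were seen and were higher, with 0.95 ± 0.05 for Tank (adjusted p = 1.5e-07) and 0.43 ± 0.07 for Azi2 (adjusted p = 0.00039). Of the interferon regulatory factors that these kinases phosphorylate, Irf7 rose from 32.5 to 66.5 CPM to 204 to 269.8 CPM with OVA, by 2.28 ± 0.35 (adjusted p = 0.00035). With single libraries left out the difference of Irf7 ran from 1.97 to 2.93, the highest without the OVA-pulsed CtrV replicate 1. Irf3, also named after its value was seen, had a log2 fold change of -0.04 ± 0.06 (adjusted p = 0.61).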

How the data were processed

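The authors deposited raw read counts per gene in 1 table for all 12 libraries. According to the methods and the submitters' processing notes, reads were aligned to mm10 with STAR, sorted with SAMtools, and their 5′ ends assigned to the union of exons of Ensembl genes by featureCounts. A stranded library kit was used per the labels, but the strand setting of the counting is not given in the sources used here, so overlapping antisense genes are named beside the members.

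Groups and replicate numbers came from the sample titles. Of 55401 genes, the 14079 whose log2 CPM exceeded 0 in at least 2 libraries were tested in R 4.3.3 with edgeR 4.0.16, using TMM normalization, a quasi-likelihood fit over the 12 libraries with group and replicate number as terms, and p-values adjusted over these genes by Benjamini-Hochberg. An adjusted p under 0.05 was called, without a fold limit, since the limits are blank in the study's text. CPM used TMM-scaled library sizes. Intervals come from the quasi-likelihood test. The common dispersion was 0.0059. Symbols, positions and exon lengths came from a GENCODE annotation of GRCm38 that may differ from the counting annotation. Steps were tested on simulated data.

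The members and lists were chosen with earlier results of these data known. Named were the 9 members, Siglece, the largest called rise and fall of each list in OVA-pulsed cells, and the 3 genes most similar to each member, and genes outside this rule are marked. Deviations of same-numbered libraries between the lines had correlations of 0.448, 0.292 and 0.289 for replicates 1, 2 and 3 with OVA. Without OVA they were 0.060, -0.012 and 0.263. Between OVA-pulsed and unpulsed libraries of a line they were 0.077, 0.179 and 0.373 in CtrV cells. In EKO-labelled cells they were 0.706, 0.351 and 0.411. The block follows the study's methods, and whether same-numbered libraries were handled together is not described.

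Alternatives were RLE and upper-quartile normalization, no filter, at least 10 counts in every library, DESeq2 1.42.0, limma voom 3.58.1, bias-adjusted deviances, no replicate block, the 6 compared libraries alone, each library left out, both EKO-labelled libraries numbered 1 left out, and other gene lengths.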

Additional observations from a re-analysis of the deposited data

How the results depend on the processing

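The counts of members higher and lower between the lines, 6 and 2, were within 1.5 times under all alternatives, as were the counts of genes called over the whole table. The split of those genes turned with upper-quartile normalization, to 3103 higher and 3696 lower with OVA and 2910 and 3864 without, in place of 3531 and 3088 and of 3448 and 3089, while the members were 6 higher and 2 lower. Without the replicate block, edgeR called 6 members higher and 2 lower in each line comparison, and 5413 genes with OVA and 5337 without in place of 6619 and 6537. No call of a member changed with the block. With each library left out in turn, the 8 called members kept direction and call in both line comparisons. Cgas ranged from -0.07 to 0.18 with OVA and from 0.19 to 0.48 without, and its call without OVA was also gained with no expression filter (0.31, adjusted p = 0.046). Without both EKO-labelled libraries numbered 1, 7 members were higher and 2 lower in each line comparison. Of 13997 genes tested in that fit, 5973 were called with OVA (3173 higher and 2800 lower) and 6199 without (3196 higher and 3003 lower).

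Signs turned for Cgas with OVA, as given above, and otherwise for values that no fit called. With single libraries left out, the log2 dependence on pulsing ran from -0.58 to 0.32 for Ddx58, from -0.35 to 0.21 for Ifih1, from -0.45 to 0.26 for Dhx58, from -0.0049 to 0.06 for Mavs, from -0.92 to 0.58 for Zbp1, from -0.07 to 0.0073 for Tbk1 and from -0.38 to 0.32 for Ikbke. The difference of OVA against no OVA in CtrV cells ran from -0.39 to 0.42 for Ddx58, from -0.26 to 0.25 for Ifih1, from -0.31 to 0.38 for Dhx58, from -0.01 to 0.04 for Mavs, from -0.05 to 0.22 for Cgas, from -0.0082 to 0.04 for Tmem173, from -0.54 to 0.89 for Zbp1, from -0.02 to 0.01 for Tbk1 and from -0.18 to 0.5 for Ikbke. The difference in EKO-labelled cells ran from -0.45 to 0.11 for Ddx58, from -0.28 to 0.08 for Ifih1, from -0.31 to 0.11 for Dhx58, from -0.42 to 0.39 for Zbp1, from -0.08 to 0.0066 for Tbk1 and from -0.02 to 0.4 for Ikbke. Under the other alternatives, OVA against no OVA in CtrV cells was -0.0065 for Mavs and -0.00074 for Tmem173 with upper-quartile normalization, and for Tbk1 0.00072 with DESeq2, 0.00058 with RLE, 0.00024 with at least 10 counts and 0.0084 with no filter. In EKO-labelled cells it was 0.04 with limma voom and 0.03 with the 6 libraries alone for Zbp1, and -0.02 for Ikbke without both libraries numbered 1. The dependence on pulsing was 0.03 for Ikbke with DESeq2. The cause was not tested.

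With the longest transcript as length, 5 to 7 members kept their place in the order of levels, and with the coding length 6 or 7. With 3 libraries per group and 6 residual degrees of freedom, changes of Zbp1 with OVA smaller than its interval could not be detected.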
